A study of Homo sapiens with 2 samples.

Results

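The genes described here build and run mitosis: mitotic cyclins and kinases, the spindle checkpoint, kinetochores, condensin, the spindle and the machinery of cytokinesis. They were taken by name, with kinesins other than CENPE left out, and all 49 names were found among the 29452 gene rows of the deposited table. The rows were measured by RNA sequencing in MDA-MB-231, an established cell line from a triple-negative breast cancer. The study compared 1 library from cells carrying a short hairpin RNA against the kinase CDK14 (CDK14-sh) with 1 library from cells carrying a scramble control. Neither the hairpin sequences nor the time after their delivery were given in the sources used here. Each condition is 1 library, so nothing below could be checked in replicates, and no gene was tested between the conditions. Words such as lower and higher describe these 2 libraries. Where levels are given in pairs, the CDK14-sh library comes first; "with the hairpin" means CDK14-sh and "without it" means the scramble control.

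Entry into mitosis is driven by CDK1 bound to cyclins A and B, with the Polo and Aurora kinases acting beside it. Condensin compacts the chromosomes, kinetochores attach them to the spindle, and the spindle checkpoint holds the anaphase-promoting complex inactive until the attachments are made. Most of these genes are transcribed late in the cell cycle under the DREAM and MuvB complexes, B-MYB and FOXM1, so their transcripts are widely used to gauge how much of a culture is cycling. CDK14 itself pairs with cyclin Y at the plasma membrane and is best known for phosphorylating the Wnt co-receptor LRP6 around mitosis.

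The libraries held 15478156 reads assigned to genes for CDK14-sh and 17217564 for scramble. CDK14 stood at 0.548 RPKM (reads per kilobase of exon, scaled to library size) in CDK14-sh, from 58 reads, and at 2.48 RPKM in the scramble control, from 292 reads. The level was 22.1% of the control (95% counting interval 16.4% to 29.4%), and exons of the CDK14 row are shared with CLDN12 and other rows. Markers of the line were high in both libraries, with VIM at 146 and 249 RPKM and AXL at 123 and 130 RPKM in CDK14-sh and scramble, in that order. Of 6 luminal markers, ESR1 and PGR lay at or below 0.0379 RPKM in both and FOXA1 at 0.146 and 0.0438 RPKM, while KRT8, KRT18 and GATA3 were above 1 RPKM in both and the 6 summed to 44.9 and 71.2 RPKM. Of 5 fibroblast markers, DCN and LUM were listed at 0, COL1A2 and PDGFRA lay at or below 0.0156 RPKM, and COL1A1 stood at 1.99 and 1.65 RPKM. Of the leukocyte markers, PTPRC stood at 0.0232 and 0.0208 RPKM. CD68, which many cancer cells express in lysosomes, stood at 126 and 128 RPKM. The 4 endothelial markers summed to 1.65 and 1.86 RPKM, with VWF listed at 0.

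Nearly all of the mitosis genes were lower in the CDK14-sh library, each by a moderate amount. The log2 ratio of RPKM, with 0.1 RPKM added to each level, was below 0 in 46 of 49 genes, against 45.3% of the 14878 genes that reached 1 RPKM in at least 1 library. All 49 passed that level filter. Their median log2 ratio was -0.33, or 1.26-fold lower, where the median over all genes measured was 0.04. None of the 49 was 2-fold lower or 2-fold higher, while 3.47% of all genes were at least 2-fold lower and 3.21% at least 2-fold higher. At 1.5-fold, 7 of 49 (14.3%) were lower and 0 were higher, against 9.55% and 9.11% of all genes. In TPM, which rescales each library to a common sum, 17 of 49 (34.7%) were at least 1.5-fold lower, against 15.9% of all genes.

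The same held against protein-coding genes alone, the class to which all 49 belong. Of the 10419 such genes measured, 46.0% had a ratio below 0, 7.61% were at least 1.5-fold lower and 5.73% at least 1.5-fold higher. Their median was 0.03. Summed over the 49 genes, the level was 1428 RPKM in CDK14-sh and 1836 RPKM in the scramble control, so that the sum stood at 77.8% of the control. The genes took 0.662% of reads in CDK14-sh (0.658% to 0.666%) and 0.861% in the scramble control (0.857% to 0.866%). In RNA from a bulk culture, fewer cells in the mitotic part of the cycle and less of these transcripts per cell cannot be told apart.

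**Figure D1:**
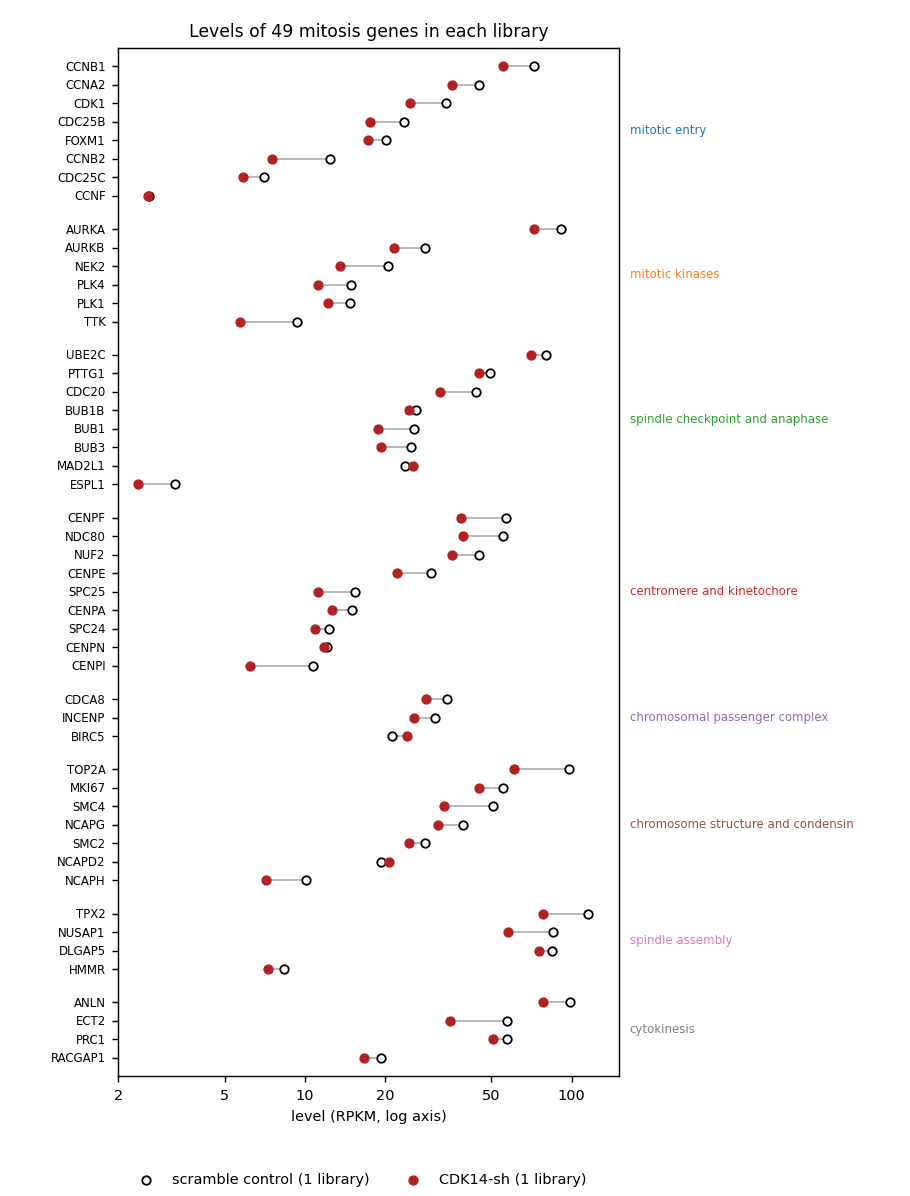
Level of each of the 49 genes in RPKM (log axis) in the CDK14-sh library (filled) and the scramble library (open), grouped by role; each point is 1 library. The filled point lies left of the open one for all genes except BIRC5, NCAPD2 and MAD2L1, where the last 2 also lie left in TPM (each library rescaled to a common sum) and CCNF and CENPN lie right with mitochondrial reads left out.

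The genes spanned a wide range of levels, from 2.61 RPKM for CCNF to 115 RPKM for TPX2 in the scramble library, with a median of 28.2 RPKM. Every gene had at least 253 reads in each library, and the most were 12146, for MKI67 in the scramble control. At this depth, counting error is small beside most of the differences. The 95% counting interval of the ratio lay below 1 for 44 genes, above 1 for 3 genes and held 1 for 2 genes, CENPN and CCNF. These intervals cover counting error only, with no spread between cultures, and among protein-coding genes they lay below 1 for 2830 and above 1 for 3277.

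**Figure D2:**
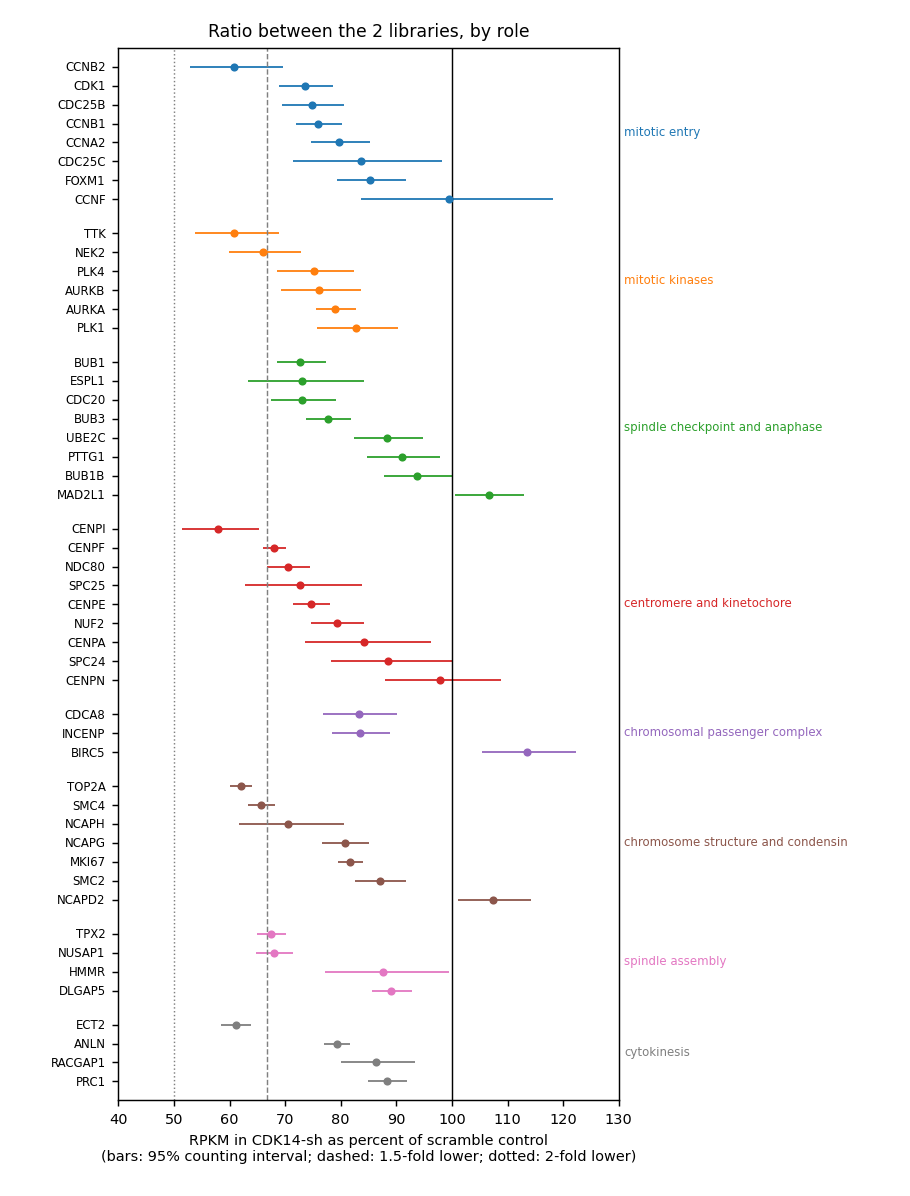
RPKM in CDK14-sh as percent of the scramble control for each gene, with 95% counting intervals as bars, coloured by role. CENPI is lowest at 58.0% and BIRC5 highest at 113%; the intervals of MAD2L1 and NCAPD2 also lie above 100%, though both genes stood below 100% in TPM.

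Length, level and shared exons were looked at beside this result, and their part in it was not tested. Longer protein-coding transcripts had lower ratios: in 4 equal groups by summed exon length, the medians were 0.13, 0.05, 0.01 and -0.05 from shortest to longest. The mitosis genes had negative medians in each of these groups, -0.34, -0.31, -0.20 and -0.43, from 15, 19, 9 and 6 genes. Across the 49 genes, the Spearman correlation of the ratio with exon length was -0.03 and with the scramble level -0.16, a description across genes that share 2 libraries. Exons of 18 genes overlap another row, on the other strand in 16 of them. The 31 genes that share no exon had a median of -0.44 with 30 below 0, and the 18 that do share exons a median of -0.22 with 16 below 0.

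**Figure D3:**
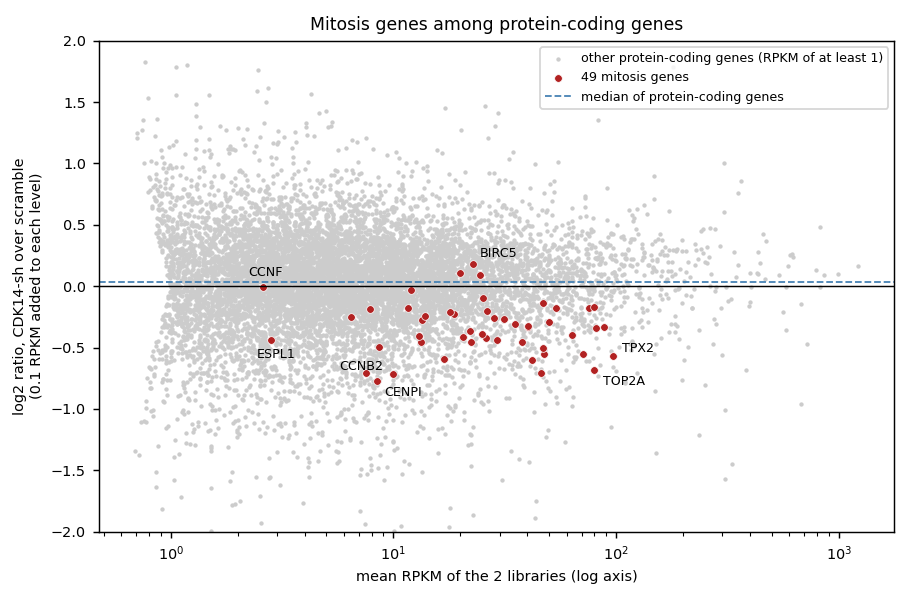
Log2 ratio of CDK14-sh over scramble (0.1 RPKM added) against the mean RPKM of both libraries (log axis), for the 49 mitosis genes (red) and the other protein-coding genes with at least 1 RPKM (grey), 16 of which lie outside the axis. The red points lie mostly between 0 and -0.78 at all levels, below the dashed median of 0.03.

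The mitotic cyclins and their kinase were among the genes below control. CCNB2, on chromosome 15 from 59105078 to 59125045 (GRCh38, plus strand), encodes cyclin B2. It stood at 7.54 RPKM with the hairpin (327 reads) and at 12.4 RPKM without it (599 reads). It was 1.65-fold lower (1.44 to 1.89), and this was the lowest ratio of the entry genes. CCNB1, encoding cyclin B1, the more abundant B-type transcript here, stood at 55.0 RPKM in CDK14-sh and 72.4 RPKM in scramble, 1.32-fold lower (1.25 to 1.39). The interval of CCNB1 did not overlap that of CCNB2, so the B-type cyclins differed from each other by more than counting error. CDK1, the catalytic partner of both, stood at 24.9 and 33.8 RPKM, 1.36-fold lower (1.27 to 1.45), between the cyclins. Its interval overlapped those of both cyclins. CCNA2, encoding cyclin A2, stood at 35.7 and 44.8 RPKM, 1.25-fold lower.

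The phosphatases that switch CDK1 on were lower as well. CDC25B stood at 17.6 RPKM in CDK14-sh and 23.5 RPKM in scramble, 1.34-fold lower (1.24 to 1.44). CDC25C stood at 5.87 and 7.01 RPKM, 1.19-fold lower (1.02 to 1.40), with an interval that reached close to 1. FAM53C, whose row shares exons with CDC25C on the other strand, was itself lower, at 2.58 against 5.74 RPKM. FOXM1, a transcription factor that activates many of the genes described here, stood at 17.2 and 20.2 RPKM, 1.17-fold lower (1.09 to 1.26). CCNF, the F-box protein cyclin F, was nearly level at 2.59 and 2.61 RPKM. Its ratio turned above 0 when mitochondrial reads were left out of the totals. The 8 entry genes had a median log2 ratio of -0.36.

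All 6 mitotic kinases other than CDK1 and BUB1 were lower in CDK14-sh, with a median log2 ratio of -0.40. TTK, on chromosome 6 from 80003887 to 80042527 (plus strand), encodes MPS1, the kinase that starts checkpoint signalling at unattached kinetochores. It stood at 5.70 RPKM with the hairpin (404 reads) and at 9.36 RPKM without it (738 reads), 1.64-fold lower (1.45 to 1.86). NEK2, on chromosome 1 from 211658657 to 211675630 (minus strand), encodes a kinase of centrosome separation. It stood at 13.5 and 20.4 RPKM, 1.51-fold lower (1.37 to 1.67). NEK2 lies just inside 1.5-fold and fell outside it with 1 RPKM added to each level or with mitochondrial reads left out. PLK4, the kinase of centriole duplication, stood at 11.2 and 14.8 RPKM, 1.33-fold lower. AURKB and AURKA, the Aurora kinases of the centromere and of the spindle poles, were 1.31-fold and 1.27-fold lower. AURKA was the most abundant kinase, at 71.9 and 91.0 RPKM. PLK1, the Polo kinase of mitotic entry, stood nearest to control among the 6, at 12.2 and 14.7 RPKM, 1.21-fold lower (1.11 to 1.32).

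Checkpoint and anaphase genes ran from log2 ratios of -0.46 to 0.09, the highest of which is below 0 in TPM. BUB1, a checkpoint kinase of the kinetochore, stood at 18.7 RPKM in CDK14-sh and 25.7 RPKM in scramble, 1.37-fold lower (1.29 to 1.46). CDC20, which the checkpoint holds back from the anaphase-promoting complex, stood at 32.0 and 43.8 RPKM, also 1.37-fold lower (1.26 to 1.48). BUB3, their binding partner at the kinetochore, was 1.29-fold lower, at 19.3 and 24.9 RPKM. BUB1B, encoding BUBR1, was close to control at 24.5 and 26.2 RPKM, 1.07-fold lower (1.00 to 1.14), and shares exons with the BUB1B-PAK6 row on the same strand. MAD2L1, encoding MAD2, was above control.

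MAD2L1, on chromosome 4 from 120055608 to 120067074 (minus strand), stood at 25.3 RPKM with the hairpin (2252 reads) and at 23.7 RPKM without it (2349 reads). It was 1.07-fold higher (1.01 to 1.13) and below control in TPM. CDC20, BUB1B, BUB3 and MAD2L1 encode the mitotic checkpoint complex, and their levels relative to control ran from 73.0% for CDC20 to 107% for MAD2L1. Of the 6 pairs among them, 5 had counting intervals that did not overlap. Such pairs were not counted among other genes. Intervals were narrow for many genes at this depth, lying below 1 for 2830 and above 1 for 3277 of 10419 protein-coding genes. By counting error alone, these transcripts did not keep a fixed proportion between the libraries, which is not known to be particular to this complex. Protein was not measured.

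Genes that carry out anaphase were lower. ESPL1, encoding separase, which cuts cohesin, had a low level of 2.38 RPKM in CDK14-sh and 3.25 RPKM in scramble and was 1.37-fold lower (1.19 to 1.58). UBE2C, the E2 enzyme of the anaphase-promoting complex, stood at 70.6 and 79.9 RPKM, 1.13-fold lower (1.05 to 1.21). PTTG1, encoding securin, the inhibitor of separase, stood at 44.8 and 49.3 RPKM, 1.10-fold lower (1.02 to 1.18). The 8 checkpoint and anaphase genes had a median log2 ratio of -0.27, and 7 lay below 0.

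Centromere and kinetochore genes held the lowest ratio of the whole set. CENPI, on the X chromosome from 101098218 to 101163681 (plus strand), belongs to the inner kinetochore network that sits on centromeric chromatin. It stood at 6.21 RPKM with the hairpin (415 reads) and at 10.7 RPKM without it (796 reads), 1.72-fold lower (1.53 to 1.95). CENPF, a large protein of the outer kinetochore, stood at 38.5 and 56.7 RPKM, 1.47-fold lower (1.43 to 1.51), just outside 1.5-fold. CENPE, a kinetochore motor that moves chromosomes to the metaphase plate, stood at 22.2 and 29.8 RPKM, 1.34-fold lower. CENPA, the histone variant that marks the centromere, was 1.19-fold lower (1.04 to 1.36), at 12.7 and 15.1 RPKM, and shares exons with SLC35F6. CENPN, which reads the CENPA nucleosome, was nearly level at 11.8 and 12.1 RPKM. All 9 of these genes had ratios below 0 with a median of -0.42, though CENPN turned above 0 when mitochondrial reads were left out.

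The Ndc80 complex, which binds microtubules at the kinetochore, had all 4 of its transcripts lower. NDC80 stood at 39.0 RPKM in CDK14-sh and 55.3 RPKM in scramble, at 70.5% of control (66.8% to 74.4%). NUF2, its partner in the microtubule-binding end, stood at 35.7 and 45.0 RPKM, 1.26-fold lower (1.19 to 1.34). The 2 subunits of the inner end had lower levels in both libraries than this pair. SPC25 stood at 11.2 and 15.4 RPKM, 1.38-fold lower, and SPC24 at 10.9 and 12.3 RPKM, 1.13-fold lower (1.00 to 1.28). Of the 6 pairs in this complex, 2 had intervals that did not overlap, NDC80 with NUF2 and NDC80 with SPC24.

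The chromosomal passenger complex places AURKB at centromeres and later at the midzone. Its scaffold INCENP stood at 25.7 RPKM in CDK14-sh and 30.8 RPKM in scramble, 1.20-fold lower (1.13 to 1.27). CDCA8, encoding borealin, stood at 28.4 and 34.2 RPKM, also 1.20-fold lower (1.11 to 1.30). BIRC5 was the exception.

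BIRC5, on chromosome 17 from 78214186 to 78225636 (plus strand), encodes survivin, the subunit that targets the complex and that is also classed as an inhibitor of apoptosis. It stood at 24.1 RPKM with the hairpin (1423 reads) and at 21.2 RPKM without it (1395 reads), 1.13-fold higher (1.05 to 1.22). This was the highest ratio of the 49 genes. It shares no exon with another row, and its ratio stayed above 0 in each of the 12 alternative settings. Of these, the settings on level filter, reads, gene class and overlap leave the ratio unchanged by construction. In TPM, however, the log2 ratio of BIRC5 was only 0.03, close to control. The counting interval of BIRC5 did not overlap those of AURKB, INCENP or CDCA8, while theirs overlapped one another.

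Among genes of chromosome structure, TOP2A stood lowest. TOP2A, on chromosome 17 from 40388516 to 40417950 (minus strand), encodes topoisomerase II alpha, which untangles sister chromatids. It stood at 60.7 RPKM with the hairpin (6045 reads) and at 97.7 RPKM without it (10832 reads), 1.61-fold lower (1.56 to 1.66). MKI67, encoding the proliferation marker Ki-67, which coats mitotic chromosomes, stood at 45.0 and 55.1 RPKM, 1.22-fold lower (1.19 to 1.26). The intervals of these widely used proliferation markers did not overlap.

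Condensin I was lower in 4 of its 5 transcripts, and they differed among themselves. SMC4, on chromosome 3 from 160399274 to 160434962 (plus strand), encodes an ATPase arm of the ring. It stood at 33.2 RPKM with the hairpin (4350 reads) and at 50.6 RPKM without it (7369 reads), 1.52-fold lower (1.47 to 1.58). It fell outside 1.5-fold with mitochondrial reads left out or a trend on length and level subtracted, and its exons are shared with TRIM59 and IFT80. SMC2, the other arm, stood at 24.5 and 28.2 RPKM, only 1.15-fold lower (1.09 to 1.21). NCAPH, the kleisin that closes the ring, stood at 7.13 and 10.1 RPKM, 1.42-fold lower (1.24 to 1.62). NCAPG, a HEAT-repeat subunit, stood at 31.5 and 39.0 RPKM, 1.24-fold lower.

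NCAPD2, the other HEAT-repeat subunit, on chromosome 12 from 6493356 to 6531955 (plus strand), stood at 20.7 RPKM with the hairpin (2080 reads) and at 19.3 RPKM without it (2153 reads). It was 1.07-fold higher (1.01 to 1.14), and below control in TPM. Its exons overlap those of MRPL51 on the other strand, an abundant row at 50.8 and 42.3 RPKM that was itself higher in CDK14-sh. The part of that overlap in the ratio of NCAPD2 was not tested. Of the 10 pairs within condensin I, 7 had counting intervals that did not overlap, and such pairs were not counted among other genes.

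Spindle assembly genes were abundant, and all 4 were lower. TPX2, which activates AURKA and nucleates microtubules near chromosomes, stood at 77.7 RPKM in CDK14-sh and 115 RPKM in scramble, 1.48-fold lower (1.43 to 1.54). NUSAP1, which bundles spindle microtubules, stood at 57.7 and 84.9 RPKM, 1.47-fold lower (1.40 to 1.54). Both lay just outside 1.5-fold and passed it in TPM, with median centring and with trimmed-mean scaling. DLGAP5, encoding the kinetochore fibre protein HURP, stood at 75.4 and 84.6 RPKM, 1.12-fold lower (1.08 to 1.17). HMMR, encoding a hyaluronan receptor that also binds the spindle, was 1.14-fold lower (1.01 to 1.30), at 7.30 and 8.34 RPKM, and its antisense row HMMR-AS1 shares its exons.

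In cytokinesis, ECT2 stood apart from the rest. ECT2, on chromosome 3 from 172750682 to 172821474 (plus strand), encodes the exchange factor that activates RhoA at the cleavage furrow. It stood at 35.1 RPKM with the hairpin (2987 reads) and at 57.4 RPKM without it (5434 reads), 1.64-fold lower (1.56 to 1.71). RACGAP1, the centralspindlin subunit that recruits ECT2, stood at 16.7 and 19.3 RPKM, 1.16-fold lower (1.07 to 1.25). ANLN, encoding the ring scaffold anillin, was 1.26-fold lower (1.22 to 1.30), at 78.3 and 98.7 RPKM. PRC1, which bundles midzone microtubules, was 1.13-fold lower (1.09 to 1.18), at 50.5 and 57.2 RPKM. The interval of ECT2 overlapped none of the other 3.

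A list of 125 further mitosis genes, written from textbook roles, was read in the same way, and all 125 were measured. Of these, 85 (68.0%) had a ratio below 0, against 45.3% of all genes measured, with a median of -0.19. At 1.5-fold, 14 (11.2%) were lower and 1 was higher, against 9.55% and 9.11% of all genes. The share past 1.5-fold lower thus lay near that of all genes and the 7.61% of protein-coding genes. The counts below 0 in the single lists are to be read beside the same 45.3%. Of the other centromere and kinetochore genes, 24 of 28 lay below 0 with a median of -0.28. MIS18A, which helps load CENPA, was the lowest of them, at 4.46 RPKM with the hairpin (119 reads) and at 12.7 RPKM without it (376 reads), 2.84-fold lower (2.31 to 3.52). CASC5, the older name of KNL1, the kinetochore scaffold for BUB1, stood at 4.86 and 9.10 RPKM, 1.87-fold lower (1.72 to 2.04).

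Other mitotic entry genes lay below 0 in 9 of 12 cases with a median of -0.32. GTSE1 was 1.62-fold lower and CKS2, a small CDK-binding protein, 1.58-fold lower, from 98 and 172 reads. Among spindle, centrosome and centriole genes, 17 of 25 lay below 0 with a median of -0.17. STIL, a centriole duplication factor, was 1.60-fold lower and ASPM, a spindle pole protein, 1.46-fold lower.

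Cohesin genes lay below 0 in 11 of 14 cases with a median of -0.18. WAPL, which releases cohesin from chromatin, stood at 8.22 RPKM with the hairpin (926 reads) and at 18.2 RPKM without it (2285 reads), 2.22-fold lower (2.05 to 2.40). SMC1A, a cohesin ring arm, was 1.62-fold lower. In condensin II, NCAPG2 was 1.63-fold lower (1.54 to 1.73) while NCAPH2 was near control, at 5.73 and 5.96 RPKM. WAPL and MIS18A were the only genes of the 125 past 2-fold, where 3.47% of all genes were at least 2-fold lower.

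The anaphase-promoting complex and its regulators had 9 of 17 (52.9%) below 0, near the 45.3% of all genes, and a median of -0.08. Its inhibitor FBXO5, encoding EMI1, was 1.54-fold lower, while the small subunit CDC26 was 1.65-fold higher (1.52 to 1.78), at 90.1 and 54.8 RPKM, with exons shared with PRPF4. Cytokinesis and abscission genes had a median of -0.04, with the kinase CIT 1.39-fold lower and the ESCRT ATPase VPS4A 1.38-fold higher. In the small checkpoint list, 2 of 3 lay below 0, with TRIP13 1.23-fold lower and MAD2L1BP at 4.95 and 5.38 RPKM.

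The DREAM and MuvB genes, which regulate the transcription of the set, had a median of 0.10. Of them, 4 of 12 (33.3%) lay below 0, against 45.3% of all genes. MYBL2, encoding B-MYB, itself expressed late in the cycle, stood at 10.8 RPKM in CDK14-sh and 16.1 RPKM in scramble, 1.49-fold lower (1.32 to 1.67). DYRK1A, a kinase that assembles DREAM, stood at 3.12 and 4.73 RPKM, 1.52-fold lower (1.36 to 1.70). The difference between these lists and the 49 genes was not tested.

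**Figure D4:**
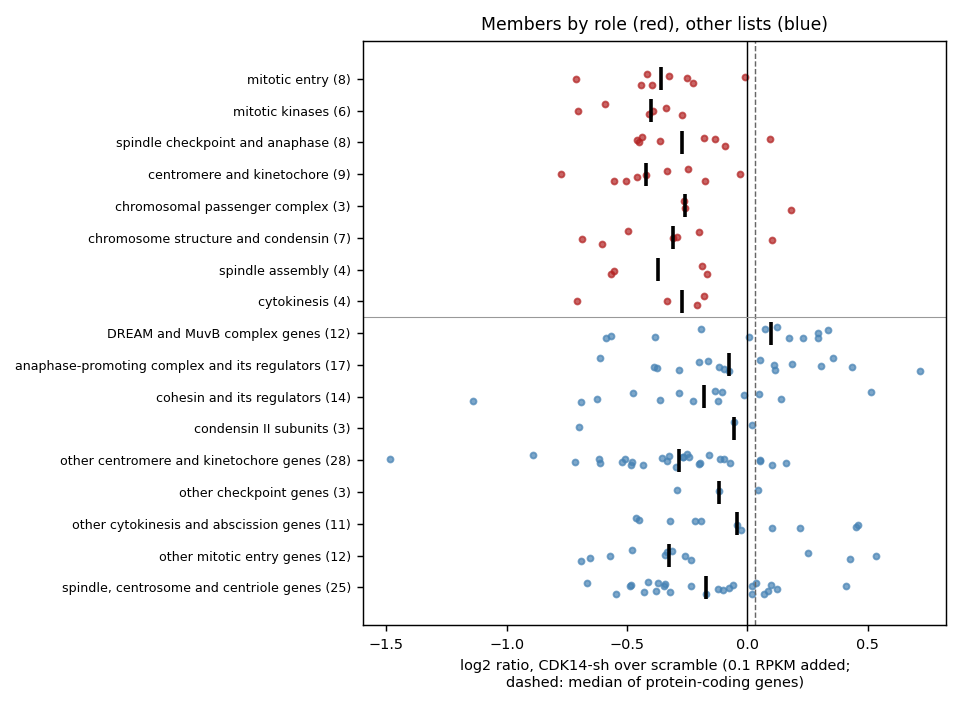
Log2 ratio of CDK14-sh over scramble (0.1 RPKM added) for each of the 49 genes by role (red) and for 125 other mitosis genes by list (blue), with the number of genes in brackets and a bar at each median. Role medians run from -0.42 to -0.26, and medians of the other lists from -0.32 for mitotic entry to 0.10 for DREAM and MuvB genes.

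Because these genes stood lower together, their promoters were searched for motifs of late cell cycle genes. Sequences came from the RefSeq promoter table (GRCh38.p14), 250 bases before to 50 after each start, and 41 of the 49 genes matched by symbol. FOXM1, UBE2C, AURKA, BIRC5, RACGAP1, TPX2, BUB3 and TTK were not matched. The first motif was the cell cycle genes homology region (CHR), searched as TTTGAA or TTCGAA on either strand, which the MuvB complexes bind. The second was CCAAT on either strand, the box bound by NF-Y. The third was an E2F motif, searched as GGCGGGAA, TTTGGCGC or TTTCGCGC on either strand. A match is a description of these letters and shows no binding.

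The CHR was found in 30 of the 41 promoters (73.2%), against 16.6% of all 27305 promoters of the table and 11.2% of the 8424 promoters of measured protein-coding genes. CCAAT was found in 29 (70.7%), against 35.7% and 37.2%. It occurred at least 2 times in 20 (48.8%), against 11.3% and 14.0%. Both a CHR and a CCAAT were found in 22 promoters (53.7%), against 6.58% and 5.03%. An E2F motif was found in 6 (14.6%), against 4.30% and 7.48%. The set was chosen for its function in mitosis, and these motifs are known from such genes, so the shares describe the set and are not a result of the knockdown.

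**Figure D5:**
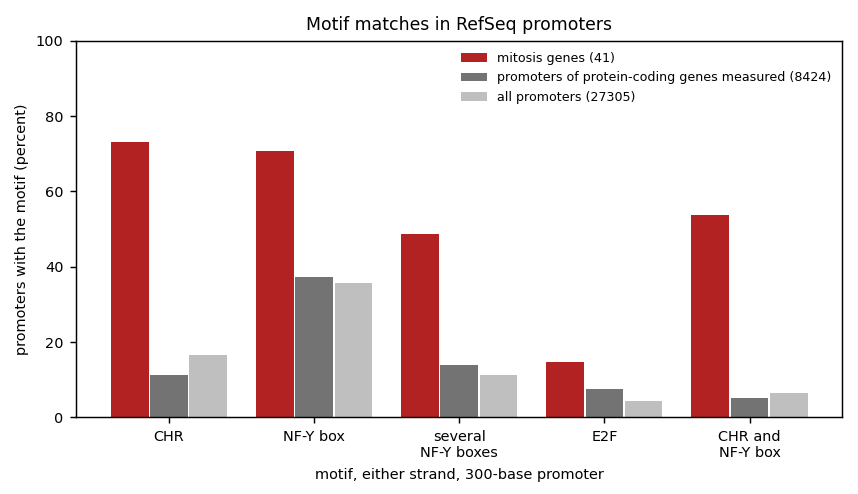
Percent of 300-base RefSeq promoters that hold each motif on either strand, for 41 of the mitosis genes (red), 8424 measured protein-coding genes (dark grey) and all 27305 promoters (light grey); the NF-Y box is CCAAT. The CHR stands at 73.2% in mitosis genes and at 11.2% and 16.6% in the other groups.

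Ratios of the 41 genes were also read by motif. The 30 genes with a CHR had a median log2 ratio of -0.32 and the 11 without one -0.40. For CCAAT the medians were -0.33 with (29 genes) and -0.37 without (12 genes), and for E2F -0.43 with (6 genes) and -0.33 without (35 genes). A gene counted as without a motif had no match to the exact letters in the promoter searched, which need not be its only promoter. No test was made of these differences.

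The 120 bases just before the RefSeq start held both a CHR and a CCAAT in 12 of the 41 genes. For 29 of the 41, the GENCODE transcript with the longest 3′ UTR matched at this start or began elsewhere in the promoter searched. CCNB2, CDC20 and DLGAP5 had no such match. A match need not put both starts at the same base. Of the windows shown, all except that of ESPL1 reach into the row of their own gene, so they are upstream of the RefSeq start only. The 4 of these with the lowest ratios and the 2 with the highest are shown, since they carry the same motifs at ratios from -0.71 to -0.01. Capitals mark the CHR, as TTTGAA or its reverse complement TTCAAA, and the CCAAT box or its reverse complement ATTGG, and each is written 5′ to 3′ on the strand of the gene. The windows are CCNB2 at chr15:59105026-59105145 (plus), ECT2 at chr3:172750606-172750725 (plus) and CDC20 at chr1:43358861-43358980 (plus). Those of ESPL1 are chr12:53268179-53268298 (plus), of DLGAP5 chr14:55191586-55191705 (minus) and of CCNF chr16:2429327-2429446 (plus).
CCNB2: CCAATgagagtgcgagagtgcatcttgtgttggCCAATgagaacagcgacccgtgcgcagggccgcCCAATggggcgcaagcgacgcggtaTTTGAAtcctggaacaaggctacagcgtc
ECT2: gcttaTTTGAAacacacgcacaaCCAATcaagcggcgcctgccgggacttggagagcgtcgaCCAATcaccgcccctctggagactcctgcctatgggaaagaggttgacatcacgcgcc
CDC20: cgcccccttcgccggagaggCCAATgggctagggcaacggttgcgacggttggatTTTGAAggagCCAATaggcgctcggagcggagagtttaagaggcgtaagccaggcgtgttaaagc
ESPL1: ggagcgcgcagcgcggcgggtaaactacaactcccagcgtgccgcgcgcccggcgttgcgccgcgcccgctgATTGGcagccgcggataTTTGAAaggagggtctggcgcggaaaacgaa
DLGAP5: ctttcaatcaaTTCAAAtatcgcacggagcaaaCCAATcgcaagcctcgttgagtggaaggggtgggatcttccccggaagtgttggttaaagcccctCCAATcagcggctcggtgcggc
CCNF: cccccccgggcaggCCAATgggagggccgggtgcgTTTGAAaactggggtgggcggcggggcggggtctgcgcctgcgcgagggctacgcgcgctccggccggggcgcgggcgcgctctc

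In the windows shown, CCNB2, at a log2 ratio of -0.71, carries 3 CCAAT boxes followed by a CHR. CDC20, at -0.45, carries 2 boxes around its CHR, and CCNF, at -0.01, carries 1 of each. Over the longer promoters searched above, CCAAT was matched 4 times in CCNB2, 2 times in CDC20 and 4 times in CCNF. The CHR was matched 1 time in CCNB2 and 2 times in each of CDC20 and CCNF. The lower counts of CCNF beside CCNB2 thus hold in the windows only. The number and order of the boxes differ among the 6 windows, and CHR and box lie in either order.

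The 3′ untranslated regions (UTRs) were searched for 4 words that are frequent in the lower genes of these libraries. The first word is GTCATGC and the second is TCATGCA, while the third is ATCCATA and the last is TCCATAA. Earlier work on the series chose them with the ratios in view, so neither their presence nor their absence in a gene supports anything. The shares and medians by word given below are a description only, since that choice shaped them in advance. They were looked for in the longest 3′ UTR of each gene in GENCODE v29, on the transcript strand only. The first pair overlap in 6 letters, as do the last pair. At least 1 word was found in 5 of the 49 mitosis genes (10.2%), against 25.1% of 10358 measured protein-coding genes and 52.5% of the 786 that were at least 1.5-fold lower.

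The 3′ UTRs of the mitosis genes are short, with a median of 794 bases against 1357. Among 2837 protein-coding genes with a 3′ UTR inside the interquartile range of the mitosis genes, 10.7% held a word, against 2 of 25 mitosis genes. The 44 mitosis genes with no word had a median log2 ratio of -0.33, and 42 of them lay below 0. Protein-coding genes with no word had a median of 0.07, and 3191 of 7761 lay below 0.

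The 5 genes with a word are shown with 10 bases before it and 10 after, 5′ to 3′ in the sense of the transcript, with the word in capitals.
CDK1: gcactgaatcATCCATAttttaatgat
BUB3: atatcttgctTCATGCActtaatatga
MAD2L1: tgttgcctccATCCATAgtatctcaaa
NDC80: atgtatatatATCCATAgtgaataaaa
TOP2A: ttgggaaatcTCCATAAtttcaatttg

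These 5 genes had log2 ratios of -0.44 (CDK1), -0.36 (BUB3), 0.09 (MAD2L1, which is below 0 in TPM), -0.50 (NDC80) and -0.69 (TOP2A). Of the 7 genes at least 1.5-fold lower, TOP2A alone holds a word, and CENPI, CCNB2, ECT2, TTK, SMC4 and NEK2 hold none.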

How the data were processed

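RNA was extracted with Trizol and sequenced from stranded mRNA libraries, per the labels' protocols. The authors deposited RPKM values for each gene row with its exon positions and summed exon length, per the file headers. Tools listed in the submitters' processing notes are Subread 1.5.1, Bowtie 0.12.2 and featureCounts, beside the builds mm8 and GRCh38, with no role stated. How strand and multi-mapped reads were handled is not given in the sources used here. All 49 rows had the same start and end as the gene in GENCODE v29, so coordinates are on GRCh38.

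Multiplying RPKM by exon length gave steps of equal size within a library, and 100% of values came out as whole reads within 0.01 read. Ratios were taken as log2 of CDK14-sh over scramble after adding 0.1 RPKM to both, which understates changes of low genes, and folds are plain ratios of RPKM. Counting intervals are 95% Clopper-Pearson intervals of the recovered reads. PCR copies are not independent molecules, so they cover counting error only. The ratio and interval code was checked on simulated reads.

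The 49 genes, the roles, the 125 further genes and the motifs were chosen with earlier results of these data known. All 49 genes are named, and of the further lists each gene past 2-fold and up to 2 a list with the largest ratio. Of the 49, 14 have pseudogenes named after them in GENCODE, whose reads could be shared. There were 8 of these 20 pseudogenes with rows of their own, each with at most 3 reads. Alternatives covered the pseudocount, level filter, scaling, read minimum, gene class, overlapping rows and a length and level trend. Tool versions were scipy 1.17.1, pandas 2.3.3, numpy 2.4.6 and matplotlib 3.10.9 under Python 3.11.15.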

Additional observations from a re-analysis of the deposited data

How the results depend on the processing

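No paired analysis was possible because there was only 1 library per condition. Across 12 alternatives, 0 of the 49 genes passed 2-fold in either direction and 0 were 1.5-fold higher, while 5 to 10 were 1.5-fold lower in each alternative except TPM, where 17 were. TPM shifts the median of all genes by -0.15 and the share of all genes at least 1.5-fold lower to 15.9%, with 7.60% higher. In TPM the median of the 49 genes was -0.49. Every role median was lower too, at -0.51 (mitotic entry), -0.55 (kinases), -0.42 (checkpoint and anaphase) and -0.57 (centromere and kinetochore). The others were -0.41 (chromosomal passenger complex), -0.46 (chromosome structure), -0.52 (spindle assembly) and -0.42 (cytokinesis). Over rows sharing no exon, 31 genes remained, 30 below 0, with a median of -0.44. The checkpoint and anaphase median was then -0.40, chromosome structure -0.39 and spindle assembly -0.56, from fewer genes. Of the cytokinesis genes only ECT2 remained, at -0.71, since exons of ANLN, PRC1 and RACGAP1 overlap other rows. In the other alternatives the median of the set lay between -0.29 and -0.38. Leaving out mitochondrial reads gave 44 genes below 0, and TPM 48. Single genes gave 568 ratios under the alternatives, of which 522 lay inside the counting interval of the gene and 46 did not. The level filters, read minimum, gene class and overlapping rows settings leave the ratio of a gene as it was. Their values lay inside by construction and are counted in the 522. Dropping low rows, a read minimum or gene class could change only the background, except that a filter at 5 RPKM removed CCNF and ESPL1. The background moved with the pseudocount and the level filter: with 1 RPKM added, 6.31% of all genes were at least 1.5-fold lower and 5.25% higher, and with no level filter 14.1% and 15.1%. At 2-fold the lower share ran from 1.74% to 6.94% and the higher share from 1.05% to 7.38%. Depth left the direction of CCNF and CENPN undetermined, and the spread between cultures is unknown.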
